A study of Homo sapiens with 6 samples.

Results

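The genes described here are developmental homeobox and paired-box transcription factor genes that lie outside the HOX clusters. They were chosen by symbol from the protein-coding genes of the RefSeq annotation of the human genome, as the listed genes of 13 families. The rule gave 77 of 19974 genes, namely 15 POU, 14 NKX, 8 LHX and 8 PAX genes, the 6 genes of the sine oculis homeobox family, and 6 DLX, 6 IRX, 3 HMX and 3 ONECUT genes and 2 genes each of the OTX, EMX, GSX and MSX families. The rule uses symbols alone. Peaks of trimethylated and dimethylated lysine 4 of histone H3 (H3K4me3 and H3K4me2) were compared around these genes in K562, a human line established from chronic myeloid leukaemia in blast crisis.

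A homeodomain is a compact DNA-binding fold, and the factors that carry one switch on the gene programmes of particular organs during embryonic development. In a differentiated or unrelated cell most of these genes are kept silent by Polycomb complexes, and their starts, which are rich in the dinucleotide CG, are textbook examples of genes at which active and repressive marks can meet. H3K4me3 marks mainly the starts of active or poised genes, and H3K4me2 extends further, into the flanks of starts and into enhancers. Some PAX genes encode a paired domain with a partial homeodomain or none.

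The 4 chromatin immunoprecipitation libraries came from K562 cells infected with a control short hairpin RNA (shControl) or with a hairpin against the RNA-binding protein Staufen 2 (shStau2). Both groups are the same cell line, and the labels give no further genotype, clone or time after infection. There was 1 library for each mark and hairpin, and 1 input library for each hairpin stood behind the authors' peak calls. No difference below therefore has a replicate check, and none was tested. A hairpin acts on mRNA, so these marks do not check the knockdown. After duplicate removal the 4 libraries held 26221869 to 30744332 tags, and the inputs 18826946 and 19921064. H3K4me3 peaks were listed for chromosomes 1 to 22 and X, with 22041 under shControl and 27333 under shStau2. The H3K4me2 lists end early, so that mark was compared on 16 whole chromosomes and most of chromosome 4, where 57 of the 77 genes lie. At peaks matched between lists, median enrichment was 2.07 times as high under shStau2 for H3K4me3 and 1.20 times as high for H3K4me2. Of 8 genes that mark K562 cells, among them GATA1, KLF1 and HBG1, 8 carried H3K4me3 in both lists. Of 7 marker genes of other cells 6 carried it in neither, among them CD3E, CD14, COL1A2, ALB and NEUROD1. COL1A1 had 516 bases covered by H3K4me3 in the shControl list and 2166 in the shStau2 list. H3K4me2 was less clear-cut. Under shControl and shStau2 it covered 1704 and 1463 bases at CD3E and 2861 and 3072 at COL1A1. At ALB it covered 226 and 0 bases, and at NEUROD1 0 in both lists.

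A gene is called marked when a peak covers at least 1 base of the 2 kb on each side of its annotated start or its annotated 3′ end. It is called gained when only the shStau2 list marks it and lost when only the shControl list does. Covered bases are the bases of those windows that lie under peaks, and fold enrichment is the authors' ratio of summit signal to local background for the strongest such peak. Fragments are the tags piled up at a summit, with exact Poisson 95% intervals that cover counting error only, since tags without molecular identifiers are not independent molecules. In each pair of values shControl comes first and shStau2 second.

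Most of these genes carried no H3K4me3 at their ends. In libraries made from many cells at once, a mark in more of the cells and a stronger mark in each cell cannot be told apart. Under shControl 26 of 77 (33.8%) were marked, and under shStau2 34 (44.2%), where 62.3% and 66.5% of all protein-coding genes were. Both lists marked 25 genes, 9 were gained, 1 was lost and 42 had none. Over all protein-coding genes 4.24% were gained and 0.0701% were lost. Among genes without the mark under shControl, 9 of the 51 members (17.6%) were gained, against 11.3% of all such genes.

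H3K4me2 was more widespread. In the region compared, 36 of 57 members (63.2%) were marked under shControl and 41 (71.9%) under shStau2, beside 74.7% and 76.8% of all 14728 genes there. Both lists marked 36, 5 were gained, 0 were lost and 16 had none, and over all genes 2.91% were gained and 0.767% were lost. Of the 21 members without H3K4me2 under shControl, 5 (23.8%) were gained, against 11.5% of such genes in general.

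**Figure D1:**
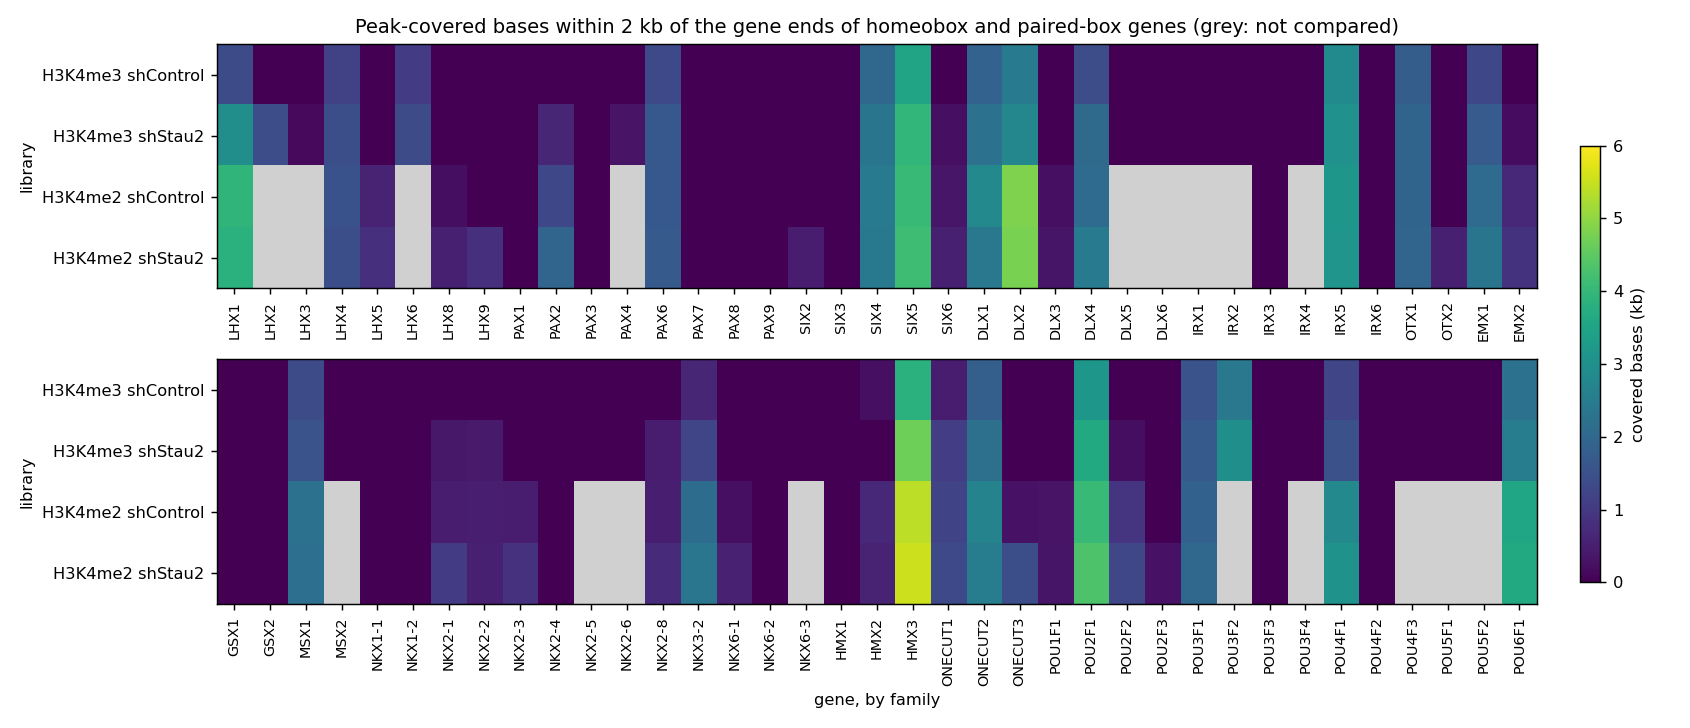
Bases covered by peaks in the windows around the ends of each gene (colour, in kb, from 0 to 6), with 1 row for each library and 1 column for each gene drawn, ordered by family. Grey cells are genes outside the region compared for H3K4me2, and the darkest cells have no peak, as in most columns of the H3K4me3 rows. The highest values are those of HMX3, with 3823 and 4682 bases of H3K4me3 in its windows.

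The marked genes were few but some were broad. The most bases covered by H3K4me3 lay at HMX3, a regulator of inner ear and hypothalamus development on chromosome 10 at 123135970 to 123139423. Peaks covered 3823 bases there under shControl and 4682 under shStau2, with fold enrichments of 19.1 and 41.7. Under shStau2 the peak reached both ends of the gene. HMX2, its neighbour with the same role, lies at 123148136 to 123150672 and was the lost gene. Its only H3K4me3 peak covered 246 bases at the start under shControl, with a fold enrichment of 5.28 and 19 fragments (11.4 to 29.7), and no base under shStau2. H3K4me2 covered the same start in both lists, with 678 bases under shControl and 609 under shStau2 and fold enrichments of 4.32 and 9.32. POU2F1, on chromosome 1, encodes OCT1, an octamer-binding factor found in nearly all cells, and had 3187 and 3650 covered bases.

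The promoters of HMX3 and POU2F1, which had the most H3K4me3 bases under shControl among members in the promoter table, and of HMX2, where the loss was seen, are shown. Each runs from 250 bases before to 50 after the start in the RefSeq promoter table of GRCh38.p14, 5′ to 3′ in the direction of the gene, and capitals mark CG, the site of DNA methylation in human cells. The motif CG reads the same on both strands and was found in 98.1% of all promoters of this length.
HMX3 promoter, chr10:123135720-123136019 (plus strand): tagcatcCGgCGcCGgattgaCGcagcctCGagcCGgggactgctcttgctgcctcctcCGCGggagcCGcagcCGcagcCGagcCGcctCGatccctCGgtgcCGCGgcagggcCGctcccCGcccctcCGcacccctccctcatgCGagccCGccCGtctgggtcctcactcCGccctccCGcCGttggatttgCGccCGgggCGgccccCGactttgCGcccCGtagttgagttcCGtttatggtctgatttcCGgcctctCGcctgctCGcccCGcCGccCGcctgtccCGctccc
POU2F1 promoter, chr1:167220636-167220935 (plus strand): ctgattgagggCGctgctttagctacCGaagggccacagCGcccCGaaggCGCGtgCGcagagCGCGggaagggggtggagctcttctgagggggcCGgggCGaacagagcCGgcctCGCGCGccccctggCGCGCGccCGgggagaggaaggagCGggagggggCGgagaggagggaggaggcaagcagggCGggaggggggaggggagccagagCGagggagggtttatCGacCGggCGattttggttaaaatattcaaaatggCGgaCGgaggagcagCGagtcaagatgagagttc
HMX2 promoter, chr10:123147886-123148185 (plus strand): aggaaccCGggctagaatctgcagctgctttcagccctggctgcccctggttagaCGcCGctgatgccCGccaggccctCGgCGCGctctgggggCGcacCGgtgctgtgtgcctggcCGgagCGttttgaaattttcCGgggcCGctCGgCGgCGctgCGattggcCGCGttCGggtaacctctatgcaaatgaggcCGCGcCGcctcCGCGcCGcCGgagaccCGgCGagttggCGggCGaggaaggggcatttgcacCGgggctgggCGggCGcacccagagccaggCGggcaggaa
HMX3 held 39 CG in its 300 bases, POU2F1 29 and HMX2 35. The promoter of the lost gene was thus no poorer in CG than that of POU2F1.

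**Figure D2:**
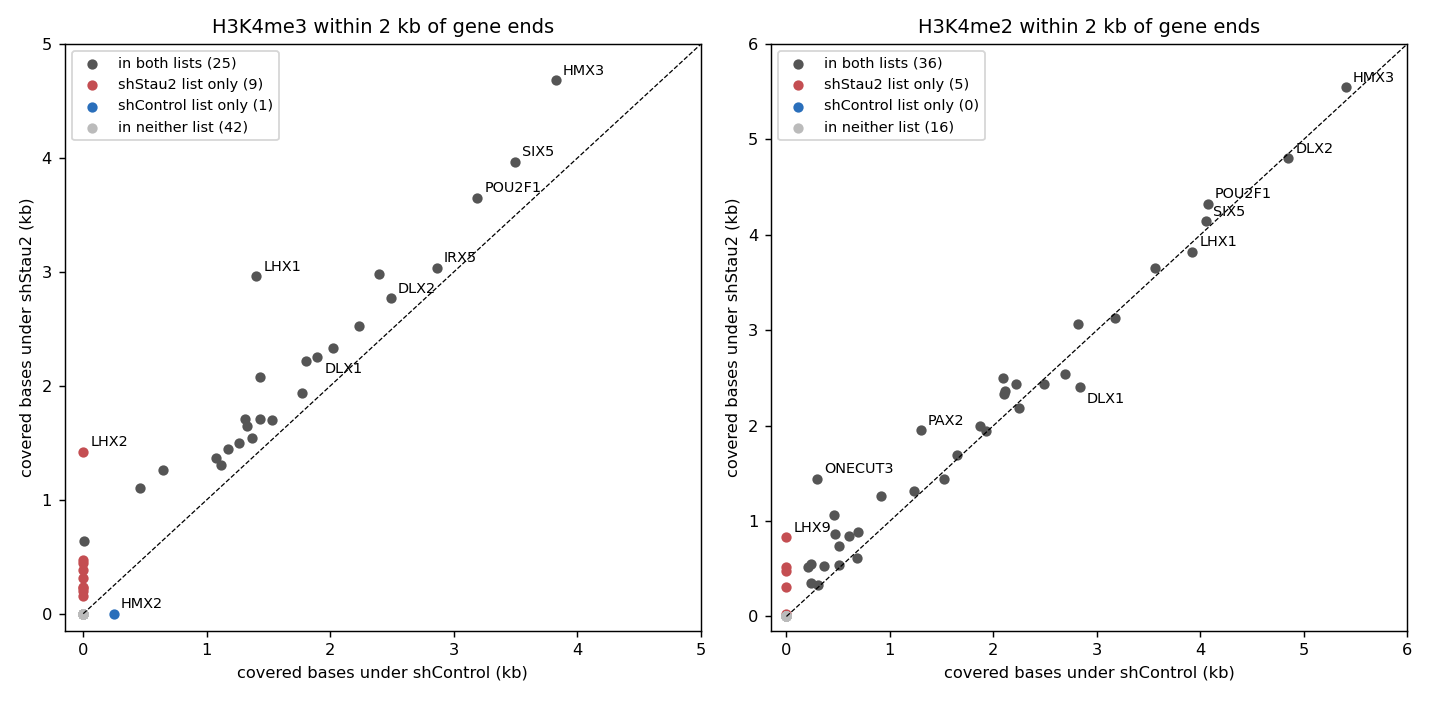
Covered bases around the ends of each gene under shControl (x axis, kb) and shStau2 (y axis, kb), for H3K4me3 on the left (77 genes) and H3K4me2 on the right (57 genes). Points are genes and the dashed line marks equal values; all 25 genes marked for H3K4me3 in both lists lie above it, and 27 of 36 do for H3K4me2.

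At the 25 members with H3K4me3 in both lists, the median of covered bases was 1429 under shControl and 1933 under shStau2. The median fold enrichment was 17.2 and 39.2. All genes marked in both lists had medians of 1832 and 2211 bases and of 22.4 and 46.0. More bases were covered under shStau2 at 25 of 25 members, where 96.9% of all such genes had more and 2.8% fewer, with median differences of 324 bases for the members and 321 for all genes. The wider H3K4me3 at these genes was thus of the size found across the genome.

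For H3K4me2 the 36 members marked in both lists had medians of 1762.5 and 1951 bases, against 2493 and 2652.5 for all genes. More bases were covered under shStau2 at 27 of them and fewer at 9, beside 72.4% and 26.9% of all genes. The median difference was 129 bases, and 124 for all genes. Fold enrichment was higher under shStau2 at 34 of the 36, against 79.9% of all genes.

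The LIM homeobox genes, whose products pair LIM domains with a homeodomain and specify neurons and endocrine cells, had 3 of 8 members with H3K4me3 in both lists. At LHX1, a factor of head and kidney development on chromosome 17, H3K4me3 covered 1402 bases in the shControl list and 2960 in the shStau2 list, the largest increase among the 77 genes. Its H3K4me2 was broad in both lists, with 3920 and 3821 bases. LHX4 and LHX6, which act in the pituitary and in cortical interneurons, had 1174 and 1443 bases and 1075 and 1368 bases of H3K4me3. At the ends of LHX4 the H3K4me2 covered 1523 and 1441 bases, but its table start lies 1889 bases inside the annotated end, and within 2 kb of that start H3K4me2 covered 2825 and 3023 bases and H3K4me3 1607 and 2816.

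LHX2 and LHX3 were the gained LIM genes. LHX2, a forebrain, eye and limb factor on chromosome 9 at 124011768 to 124033301, had no covered base under shControl and 1420 under shStau2. That peak covered its start, with a fold enrichment of 8.35 and 26 fragments (17.0 to 38.1), and overlapped no shControl peak. LHX3, a pituitary and motor neuron factor, differed in kind. The shStau2 peak that entered its window by 151 bases had a fold enrichment of 30.4 and its summit 11773 bases past the start, beyond the 3′ end, and a shControl peak of 24.9-fold lay under it outside the window. Inside LHX3, more than 2 kb from both ends, H3K4me3 peaks covered 1603 bases under shControl and 561 under shStau2.

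LHX9, a gonad and limb factor, was gained for H3K4me2 only. The peak covered its start, with 0 bases under shControl and 831 under shStau2, a fold enrichment of 4.69 and 16 fragments (9.15 to 26.0). Further inside LHX9, H3K4me2 was present in both lists, with 5172 and 6025 bases, and H3K4me3 covered 1420 and 3714 bases. The window at the gene ends missed most of the marked chromatin of this gene. LHX5 and LHX8, factors of forebrain development, carried H3K4me2 and no H3K4me3 at their ends in both lists, with 602 and 841 bases and 211 and 523 bases of H3K4me2.

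Among the PAX genes, PAX6, the eye and pancreas regulator on chromosome 11, had H3K4me3 at an end in both lists, with 1326 and 1650 bases. The peaks did not cover its table start. More H3K4me3 lay inside PAX6, over 2 kb from both ends, with 2872 and 4991 bases. PAX2, a kidney and optic nerve factor, passed under shControl by 3 bases of a peak near its 3′ end, and had 634 bases under shStau2. Its H3K4me2 covered 1296 bases under shControl and 1953 under shStau2. PAX4, a factor of pancreatic beta cells on chromosome 7, was gained with 310 bases past its 3′ end, a fold enrichment of 3.94 and 14 fragments (7.65 to 23.5).

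PAX8 and PAX9 show why no peak at an end does not mean no mark in the gene. PAX8, the thyroid factor, had 0 bases at its ends, yet an inner H3K4me3 peak covered 1586 bases under shControl and 1741 under shStau2, with fold enrichments of 23.4 and 46.0, at the non-coding gene PAX8-AS1. PAX9, a factor of tooth and thymus development, had an inner peak of 1101 and 1514 bases with fold enrichments of 14.2 and 31.0. Over all members without H3K4me3 at an end, 8 of 51 (15.7%) had an inner peak under shControl and 9 of 43 (20.9%) under shStau2, near the 14.3% and 19.6% of all genes.

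The sine oculis homeobox factors, among them SIX4, SIX5 and SIX6, include partners of the EYA coactivators and act in the eye, ear, muscle and kidney. SIX5 lies on chromosome 19 beside DMPK, the gene of myotonic dystrophy, and had 3493 bases of H3K4me3 under shControl and 3968 under shStau2. Its windows overlap those of DMPK, so the peaks cannot be given to SIX5 alone. SIX4, on chromosome 14, had 2018 and 2329 bases, with fold enrichments of 22.4 and 45.0.

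SIX6, an eye and pituitary factor on chromosome 14, was gained with 238 bases. The peak had a fold enrichment of 8.66 and 27 fragments (17.8 to 39.3), and its summit lay 5916 bases past the SIX6 start, in a window shared with C14orf39. H3K4me2 was listed there in both, with 366 and 533 bases. SIX2, which maintains nephron progenitors, was gained for H3K4me2, with 0 and 480 bases in 2 weak peaks of 3.86 and 3.57-fold enrichment. SIX3, a forebrain factor beside SIX2 on chromosome 2, had no peak of either mark at its ends.

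Among the NKX genes H3K4me3 in both lists was rare, at 2 of 14. Among them was NKX3-2, a skeletal factor, with 649 and 1259 bases at its ends. Its table start lies 3236 bases inside the annotated end, and within 2 kb of that start the values were close, at 1344 and 1401 bases, with fold enrichments of 21.6 and 51.8. Of the 12 NKX genes unmarked under shControl, 3 were gained. NKX2-8 was gained with 470 bases across its start, a fold enrichment of 6.68 and 34 fragments (23.5 to 47.5). NKX2-1, the thyroid and lung factor, was gained with 383 bases, with the summit at -774 bases from its start and 18 fragments (10.7 to 28.4). NKX2-2, a factor of pancreas and ventral neural tube, was gained with 443 bases at its 3′ end, a fold enrichment of 6.21 and 19 fragments (11.4 to 29.7).

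All 3 gained NKX genes carried H3K4me2 under shControl already. Its covered bases were 506 and 735 at NKX2-8, 464 and 1060 at NKX2-1, and 504 and 535 at NKX2-2. NKX2-3, a gut and spleen factor, and NKX6-1, a beta cell factor, kept to H3K4me2 alone, with 471 and 860 bases and 241 and 553 bases. NKX2-4 was gained for H3K4me2 by 23 bases of a peak of 4.72-fold enrichment past its 3′ end.

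The promoters of the gained genes LHX2 and NKX2-8 are shown because the new H3K4me3 peak covered the start itself, and that of GSX1, a ventral forebrain factor, as an example with neither mark. Build, window and capitals are as above.
LHX2 promoter, chr9:124011518-124011817 (plus strand): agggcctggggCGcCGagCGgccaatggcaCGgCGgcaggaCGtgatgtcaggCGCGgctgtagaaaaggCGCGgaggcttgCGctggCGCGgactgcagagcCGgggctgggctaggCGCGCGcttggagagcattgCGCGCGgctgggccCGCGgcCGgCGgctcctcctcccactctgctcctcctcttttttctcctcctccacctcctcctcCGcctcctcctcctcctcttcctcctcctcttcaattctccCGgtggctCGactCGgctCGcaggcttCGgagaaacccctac
NKX2-8 promoter, chr14:36582565-36582864 (minus strand): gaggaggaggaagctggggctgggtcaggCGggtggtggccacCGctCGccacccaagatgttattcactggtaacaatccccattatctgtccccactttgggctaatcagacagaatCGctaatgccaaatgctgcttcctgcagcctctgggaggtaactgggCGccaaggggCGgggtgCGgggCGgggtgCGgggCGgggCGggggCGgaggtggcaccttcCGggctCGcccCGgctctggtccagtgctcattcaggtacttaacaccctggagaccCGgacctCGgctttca
GSX1 promoter, chr13:27792233-27792532 (plus strand): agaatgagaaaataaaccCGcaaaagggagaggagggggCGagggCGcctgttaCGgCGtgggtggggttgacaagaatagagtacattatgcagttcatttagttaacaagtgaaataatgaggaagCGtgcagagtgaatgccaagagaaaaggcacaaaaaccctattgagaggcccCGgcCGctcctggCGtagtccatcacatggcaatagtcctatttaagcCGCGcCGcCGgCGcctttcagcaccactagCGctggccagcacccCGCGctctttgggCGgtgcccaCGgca
LHX2 held 30 CG, NKX2-8 17 and GSX1 19. The GSX1 promoter, which had neither mark, was thus no poorer in CG than the gained NKX2-8 promoter.

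The DLX genes pattern the ventral forebrain, jaw and limbs and lie in pairs. DLX1 and DLX2, on chromosome 2, were both marked in both lists. H3K4me3 covered 1893 bases at DLX1 under shControl and 2257 under shStau2, and 2489 and 2767 at DLX2. DLX1 also had the largest decrease of H3K4me2, from 2835 to 2409 covered bases, while the fold enrichments were 9.27 and 23.2. Its window overlaps that of METAP1D. In the pair of DLX4 and DLX3 on chromosome 17, DLX4 had 1429 and 2076 bases of H3K4me3 and DLX3, a skin and tooth factor, had none, with 242 and 346 bases of H3K4me2. DLX5 and DLX6, on chromosome 7, had 0 H3K4me3 peaks from 10 kb before to 10 kb after the pair in both lists.

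The IRX, MSX and OTX families each had 1 member with H3K4me3. Of the 6 IRX genes, which act in the heart and neural plate, IRX5 alone carried H3K4me3 at its ends, with 2860 bases under shControl and 3038 under shStau2 and fold enrichments of 24.2 and 56.3. The shStau2 peak was 4995 bases wide, more than the 4682 of the peak at HMX3, and ran past the window. The IRX5 peaks are shared with the long non-coding RNA gene CRNDE. MSX1, a tooth and palate factor, had 1368 and 1542 bases, with fold enrichments of 13.7 and 56.7, and MSX2 had none. OTX1, a forebrain factor, had 1768 and 1933 bases of H3K4me3. OTX2, which specifies the forebrain and midbrain, had none and was gained for H3K4me2, with 521 bases past its 3′ end, 4.72-fold enrichment and 15 fragments (8.40 to 24.7).

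EMX1 and EMX2, factors of the cerebral cortex, were both marked under shStau2. EMX1 had 1308 and 1713 bases of H3K4me3. EMX2 was gained with 200 bases before its start, a fold enrichment of 4.07 and 12 fragments (6.20 to 21.0), where H3K4me2 covered 692 bases under shControl and 884 under shStau2. GSX1 and GSX2 had no peak of either mark.

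The ONECUT genes act in liver, pancreas and neurons. ONECUT2 had 1806 and 2220 bases of H3K4me3 and 2688 and 2540 of H3K4me2, and ONECUT1 had 460 and 1099. ONECUT3 had no H3K4me3 at its ends and the largest difference in H3K4me2 among the 57 genes, with 294 and 1443 bases. These were separate peaks at opposite ends of the gene, at 1779677 to 1779970 under shControl and 1754064 to 1755619 under shStau2 on chromosome 19, with fold enrichments of 4.32 and 9.61. Inside ONECUT3, more than 2 kb from both ends, H3K4me2 was present in both lists, with 2954 and 3052 bases.

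POU genes add a POU-specific domain to the homeodomain. After POU2F1, the most bases covered by H3K4me3 lay at POU3F2, a neural factor on chromosome 6, with 2394 and 2983, and at POU6F1, with 2235 and 2529. POU3F1 had 1530 and 1702 bases, and POU4F1, a sensory neuron factor, 1263 and 1499. POU6F1 was an exception among the strong H3K4me2 genes in fold enrichment alone, which was 21.4 and 15.4 and so higher under shControl. Its H3K4me2 covered 3562 and 3653 bases, and its strongest peak held 88 (70.6 to 108.4) and 107 (87.7 to 129.3) summit fragments. The lower ratio thus does not show less H3K4me2 signal under shStau2.

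POU2F2, which encodes the B cell factor OCT2, was gained with 222 bases, a fold enrichment of 5.91 and 18 fragments (10.7 to 28.4). The peak lay in a window shared with DEDD2, and H3K4me2 covered 915 and 1266 bases at the ends of POU2F2. The table start of POU2F2 lies 65490 bases inside the annotated end. Within 2 kb of that start H3K4me3 covered 0 bases under shControl and 254 under shStau2, with a fold enrichment of 6.50. H3K4me2 covered 1214 and 1292 bases there. POU2F3, the factor of tuft cells, was gained for H3K4me2, with 304 bases, 3.66-fold enrichment and 14 fragments (7.65 to 23.5). POU5F1, which encodes the pluripotency factor OCT4, had no H3K4me3 in either list, and POU1F1, the pituitary factor, carried H3K4me2 alone, with 308 and 331 bases.

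**Figure D3:**
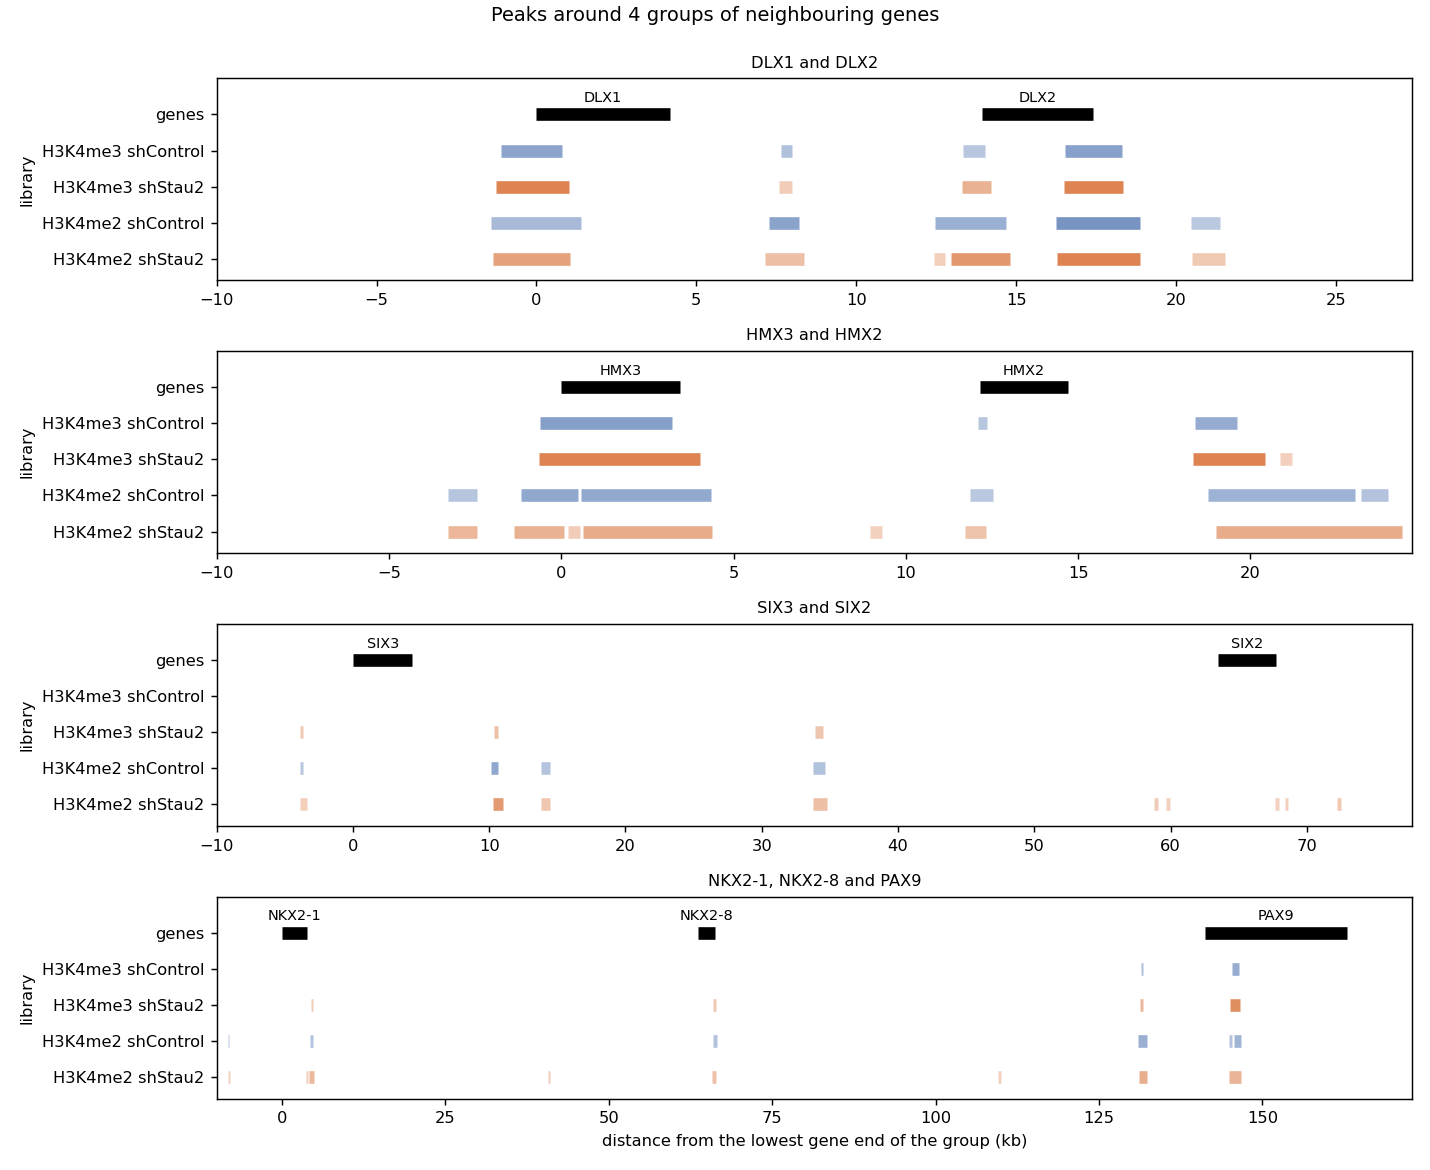
Genes (black bars) and peaks (blue, shControl; orange, shStau2; darker for higher fold enrichment) around 4 groups of neighbouring members, by distance in kb from the lowest gene end of each group. HMX2 has an H3K4me3 peak in the shControl row alone, and NKX2-1 and NKX2-8 in the shStau2 row alone, each with an H3K4me2 peak in both lists, and SIX2 has H3K4me2 at its start in the shStau2 row alone.

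H3K4me2 and H3K4me3 were read together at the 57 genes. Under shControl 23 carried both marks, 13 (22.8%) carried H3K4me2 alone, 0 carried H3K4me3 alone and 21 (36.8%) carried neither. Over all genes in the region 11.2% carried H3K4me2 alone and 25.3% neither. Under shStau2 the members numbered 28 with both, 13 with H3K4me2 alone, 0 with H3K4me3 alone and 16 with neither, beside 9.56% of all genes with H3K4me2 alone and 23% with neither.

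All 6 H3K4me3 gains in this region fell on genes that had H3K4me2 under shControl, as did 509 of the 574 gains over all genes there. Of the 13 members with H3K4me2 alone under shControl 6 (46.2%) were gained, and of the 21 with neither mark 0 were. Over all genes the counts were 509 of 1644 (31.0%) and 65 of 3720 (1.75%). The 6 were EMX2, NKX2-1, NKX2-2, NKX2-8, POU2F2 and SIX6, of which SIX6 alone remained at the raised threshold described below. The other 7 with H3K4me2 alone, DLX3, LHX5, LHX8, NKX2-3, NKX6-1, ONECUT3 and POU1F1, had no H3K4me3 at their ends under shStau2. Inside the gene, more than 2 kb from both ends, LHX5 had 1718 and 2236 bases of H3K4me3, and the shStau2 list alone had 699 bases at LHX8, of 9.58-fold enrichment, and 716 at ONECUT3, of 9.42-fold.

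H3K4me2 covered more bases under shStau2 at all 13 of those genes, at ONECUT3 through a peak at its other end. Over all genes of the gained class 81.1% had more, and over those without H3K4me3 in either list 63.8%. The median difference was 210.5 bases at the 6 gained genes and 312 bases at the 7 without H3K4me3, where it ranged from 23 to 1149. At the 22 members with H3K4me3 in both lists it was 87.5 bases, with 14 wider and 8 narrower, where 72.9% of all such genes were wider. Over all genes the medians were 165.5, 72.5 and 127.5 bases for the same classes. The 7 genes and the 6 gained genes had little H3K4me2 to begin with, with medians of 294 and 505 bases under shControl. At the 22 members the median was 2366.5.

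Where both marks were listed, H3K4me3 lay almost wholly inside H3K4me2. The median share of H3K4me3 bases also under an H3K4me2 peak was 100% under each hairpin, and it was full at 18 of 23 members under shControl and 22 of 28 under shStau2. The lowest share was at OTX1, with 87.8% and 89.1%. Within these windows H3K4me2 covered more bases than H3K4me3 at 23 of 23 and at 27 of 28. The exception was LHX4 under shStau2, where the window ends inside the peaks, whose whole widths were 3023 bases for H3K4me2 and 2816 for H3K4me3.

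The promoter table gives a start for 55 of the 77 genes. H3K4me3 covered that start at 17 of 19 marked members (89.5%) under shControl and at 18 of 27 (66.7%) under shStau2, beside 85.2% and 87.4% of all marked genes with a start. Among the 9 gained genes, the peak covered the start at LHX2 and NKX2-8 and lay away from it at the other 7, and over all gained genes it covered the start at 255 of 636 (40.1%). For H3K4me2 the start was covered at 15 of 27 marked members (55.6%) and 20 of 31 (64.5%), beside 4451 of 9063 and 5128 of 9316 marked genes in all.

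**Figure D4:**
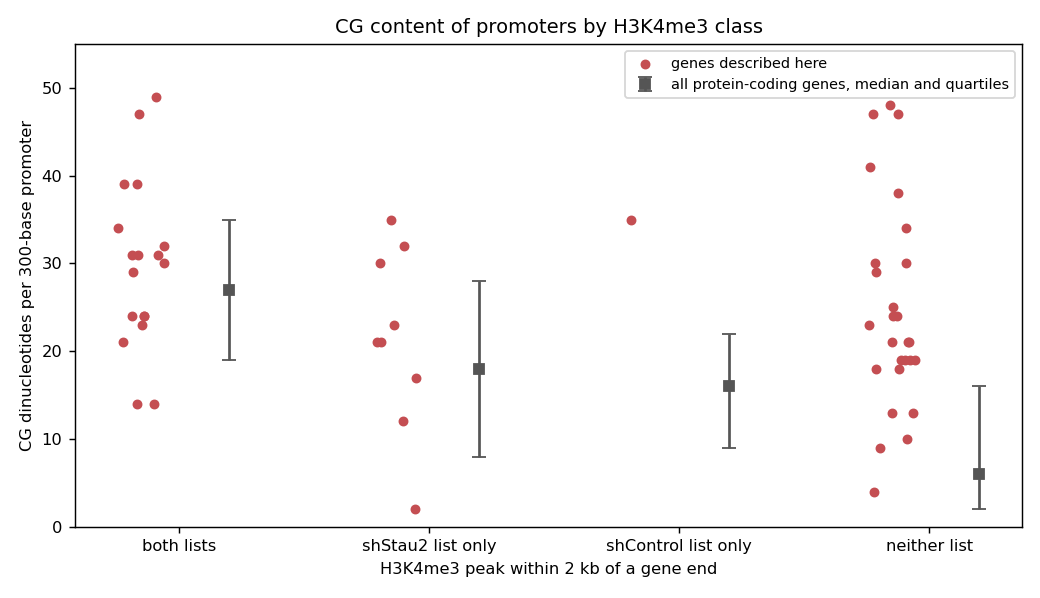
CG dinucleotides per promoter of 300 bases (y axis) by H3K4me3 class of the gene (x axis), for 55 members (red points) and for all protein-coding genes of that class (grey squares, medians, with bars from the lower to the upper quartile). The 27 members with no H3K4me3 have a median of 21 CG, and all genes with no H3K4me3 a median of 6.

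Promoters of these genes were rich in CG whether marked or not. Over the 55 members the median was 24 CG in 300 bases, and 22 over 15813 genes. The 18 members with H3K4me3 in both lists had a median of 30.5 and the 9 gained members 21, against 27 and 18 for all genes of those classes. The difference from other genes lay in the 27 members without the mark, with a median of 21 CG against 6. At least 10 CG were found in 25 of these 27 (92.6%), and in 36.4% of all genes without H3K4me3. These are counts in the reference sequence and carry no measure of DNA methylation in K562 cells.

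Other lists of developmental and chromatin genes give the scale of these counts. Of 52 other developmental homeobox genes, 21 carried H3K4me3 in both lists and 6 were gained: EN2, EVX1, TLX1, CDX2, OTP and DRGX. Of 39 HOX cluster genes, 20 carried it in both, 6 were gained and 0 were lost in the same windows. Of 65 forkhead and SOX genes, which encode other developmental factors, 38 carried it in both and 1 was gained. Among partners of the members, 8 of 11 TALE cofactor genes, 6 of 10 LIM cofactor genes and 2 of 6 EYA and DACH genes were marked in both lists, with PKNOX2 the 1 gain. Of 29 genes for Polycomb subunits, 27 were marked in both lists and 0 were gained or lost. Among genes without H3K4me3 under shControl, 31.6% of 19 HOX cluster genes and 19.4% of 31 other developmental homeobox genes were gained. The share was 3.7% of 27 forkhead and SOX genes, beside 17.6% of the members and 11.3% of all genes. The gained share of the members was thus not particular to them.

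**Figure D5:**
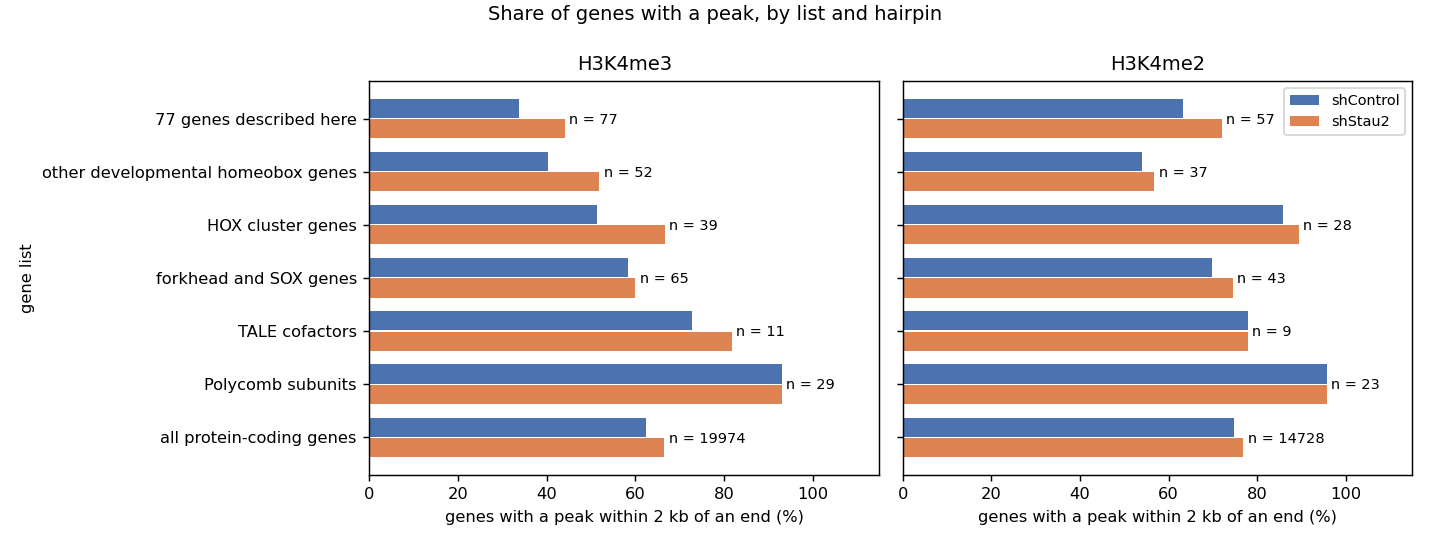
Share of genes with a peak around an end (x axis, %), by gene list (y axis), for H3K4me3 on the left and H3K4me2 on the right, under shControl (blue) and shStau2 (orange). The 77 members have the lowest H3K4me3 shares of the lists drawn, 33.8% and 44.2%, with the small lists of EYA and DACH genes (33.3% under both hairpins) and LIM cofactors not drawn, and Polycomb subunits the highest, 93.1% under both hairpins.

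Apart from LHX3, the gained H3K4me3 peaks had fold enrichments from 3.94 at PAX4 to 8.66 at SIX6. The 30.4-fold shStau2 peak counted at LHX3 overlapped a shControl peak of 24.9-fold and entered the window by 151 bases. Gained H3K4me2 peaks had fold enrichments from 3.57 at the weaker SIX2 peak to 4.72 at OTX2 and NKX2-4. At 8 of the 9 genes gained for H3K4me3 and at 5 of the 5 gained for H3K4me2, the shStau2 peak overlapped no shControl peak, as at 811 of 847 and 413 of 429 gained genes in all. With a higher fold enrichment required under shStau2, in proportion to the 2.07 and 1.20 above, 3 H3K4me3 gains remained, at LHX2, LHX3 and SIX6, and the loss at HMX2. At that threshold 0.981% of all genes were gained and 1.13% lost. Of the H3K4me2 gains LHX9, NKX2-4 and OTX2 remained, where 2.23% of all genes were gained and 1.26% lost. The gains at EMX2, NKX2-1, NKX2-2, NKX2-8, PAX4 and POU2F2 for H3K4me3 and at POU2F3 and SIX2 for H3K4me2 ended there.

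The unmarked members complete the account. In the region compared for H3K4me2, 16 genes had neither mark under either hairpin: GSX1, GSX2, HMX1, IRX3, IRX6, NKX1-1, NKX1-2, NKX6-2, PAX1, PAX3, PAX7, PAX8, PAX9, POU3F3, POU4F2 and SIX3. Of these PAX8, PAX9 and POU3F3 had an inner H3K4me3 peak in both lists and PAX7 in the shStau2 list alone. Outside that region 14 genes had no H3K4me3 at their ends, among them DLX5, DLX6, IRX1, IRX2, IRX4, MSX2, NKX2-5, NKX2-6, NKX6-3, POU3F4, POU4F3, POU5F1 and POU5F2. NKX2-5 is the heart factor and POU4F3 the factor of inner ear hair cells.

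The 2 kb limit decided a few calls. Just inside it, PAX2 was marked under shControl by 3 bases. Just outside it, LHX3 had its nearest shControl H3K4me3 peak 2062 bases from an end. That peak lay inside the gene, with a fold enrichment of 6.13, and was not the 24.9-fold shControl peak beyond the 3′ end.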

How the data were processed

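ChIP-seq of H3K4me2 and H3K4me3 in K562 cells was deposited as 4 peak lists, 1 per mark and hairpin, with groups taken from the sample titles. Bowtie2, build hg38 and MACS2 are named in the submitters' processing notes. Per the file headers, MACS 2.1.2 was run on each library against the input of its hairpin, with a q-value threshold of 0.05, a fragment length of 200 bases and 1 tag kept per position. For each peak the deposited lists give the authors' pileup signal at the summit, its ratio to the local background as fold enrichment, and the p-value and q-value as −log10. The sources used here name no spike-in.

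Both H3K4me2 lists hold 65507 peaks and are incomplete. Position 185623562 of chromosome 4, where the shStau2 list stops, bounded the comparison, and the shControl list reaches 27590792 on chromosome 6. Genes came from RefSeq GRCh38.p14, and starts from its promoter table. For 47 of 55 members the table start equals an annotated gene end, and for 4 it differs by over 1 kb.

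Covered bases were counted with Python 3.11.15, numpy 2.4.6 and pandas 2.3.3, and differed from bedtools 2.31.1 at 0 of 19974 genes. Summit fragments were recovered as the deposited pileup signal divided by the ratio of input to ChIP tags. They came out whole within 0.02 for 100% of 180871 peaks. Intervals came from scipy 1.17.1 and figures from matplotlib 3.10.9.

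The members and lists were chosen with earlier results of these data known. Genes were named by this rule: all gained or lost members, the 10 with most H3K4me3 under shControl, the 5 largest increases and decreases per mark, members with H3K4me2 alone in both lists, families with 1 marked member, and the 5 marked members with fewest H3K4me3 bases. LHX2 and NKX2-8 are printed as promoters in place of the gained genes of highest fold, LHX3 and SIX6, whose peaks lay away from their starts, and PAX8, PAX9, PAX6, POU3F1, POU4F1, POU5F1 and the remaining members were added as context, all after their values were seen. A few genes are counted in the totals but not reported here by name. With 1 library per group no test was run. Alternatives were windows of 1 kb and 5 kb, a −log10 q of 10 or more, equal numbers of peaks, a raised threshold, gene ends not shared with another coding gene, the gene start alone and, chosen after the data were seen, peaks that overlap no peak of the other hairpin. The raised threshold required a fold enrichment of 3.97 under shControl and 8.20 under shStau2 for H3K4me3, and of 3.30 and 3.97 for H3K4me2.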

Additional observations from a re-analysis of the deposited data

Results flagged for a closer look

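In data outside the comparison, the shControl H3K4me2 list also covers chromosome 5, which the shStau2 list does not reach. Of 7 members there, MSX2 was the 1 with a peak, with 317 covered bases, a fold enrichment of 4.92 and 15 fragments. It had no H3K4me3 in either list, and IRX1, IRX2, IRX4, NKX2-5, POU4F3 and POU5F2 had no H3K4me2 peak at their ends.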

How the results depend on the processing

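Over 88 values recomputed under the alternatives, 66 stayed within 1.5 times the reported count or difference and 22 moved further. Only the median differences could change sign, since counts cannot, and 0 of them did. A count that stayed close did not always hold the same genes. With windows of 5 kb, 7 of 11 H3K4me3 gains and 3 of 6 H3K4me2 gains were among those reported. H3K4me3 gains numbered 9 and were 5 at a −log10 q of 10 or more, 3 at the raised threshold and 5 with the gene start alone, and the 1 loss, HMX2, became 0 at that q and with windows of 5 kb. H3K4me2 gains numbered 5 and were 3 with windows of 1 kb, at the raised threshold and with the start alone, and 8 at the stricter q, which shared 0 genes with the 5. With windows of 5 kb H3K4me2 had 1 loss, GSX1. The start alone, which uses the 55 genes with a start, gave 22 members with H3K4me3 under shStau2, and 22 and 25 with H3K4me2 under shControl and shStau2. The median difference in covered bases for H3K4me3 was 488.5 with windows of 5 kb. For H3K4me2 it was 31 with windows of 1 kb, 243 with 5 kb, 40 at the stricter q and 83 with the start alone. Members with H3K4me2 alone numbered 5 under shControl at the stricter q, 8 under shStau2 with windows of 1 kb, and 6 under both hairpins with the start alone. Where no reason is given, the cause was not tested.

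No paired analysis was possible because each mark and hairpin has 1 library. Each gained or lost peak but that at LHX3 had 11 to 34 fragments at its summit, so these calls rest on few fragments. SIX2, EMX2, PAX4 and POU2F3 are examples. For H3K4me3 the deeper library was that of shControl, with 30744332 tags after duplicate removal against 26320758 for shStau2. For H3K4me2 the deeper was that of shStau2, with 27979370 against 26221869. Whether depth limited the calls was not tested. A peak missing from a list shows only that its threshold was not reached.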
